A study of Mus musculus with 60 samples.

Results

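Brown adipose tissue (BAT) of obese mice given sulforaphane (SFN) was compared with BAT of obese mice given vehicle, gene by gene. Genes were taken where the mean over the 10 BAT libraries was at least 0.5 FPKM (a read count scaled to gene length and library size), which left 13327 of the 54532 genes in the table, 11556 of them protein-coding. The series holds 60 poly-A RNA-seq libraries from 6 tissues, with the same mouse numbers in each. It asks what SFN, an isothiocyanate from cruciferous vegetables, does to gene expression in diet-induced obesity. The animals were male wild-type C57BL/6 mice that went onto a high-fat diet at 12 weeks of age and stayed on it for 16 to 20 weeks. At about 28 weeks of age, 5 mice (vehicle mice 1 to 5) received vehicle and 5 (SFN mice 6 to 10) received 5 mg/kg SFN, by intraperitoneal injection every day for 1 week. Both groups were therefore obese and injected, and no lean or uninjected BAT was analysed here. Food was freely available, so an effect of the compound and an effect of a changed food intake on BAT cannot be told apart in these groups.

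Brown adipocytes burn fatty acids and glucose in abundant mitochondria and release the energy as heat through uncoupling protein 1 (Ucp1), which lets protons return to the mitochondrial matrix without making ATP. They take up fatty acids from circulating lipoproteins, store them in many small droplets, and also make fatty acids from glucose. Branched-chain amino acids, ketone bodies and succinate are further fuels of this tissue.

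The label was checked against 2 markers. Ucp1 was at 3361, 2442, 3716, 3605 and 4410 FPKM in the vehicle mice and at 3655, 2201, 3759, 4182 and 4248 FPKM in the SFN mice. Cidea, a lipid-droplet protein that marks brown adipocytes, ranged from 1107 to 1544 FPKM in the vehicle mice and from 1286 to 1722 FPKM in the SFN mice. Both markers were thus among the abundant transcripts in each of the 10 libraries, and both groups overlapped for each. The difference in Ucp1 was 0.03 ± 0.20 on the log2 scale (SE, limma adjusted p = 0.97, exact permutation p = 0.865) and that in Cidea was 0.11 (adjusted p = 0.674).

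Recovered reads per library ran from 15548073 to 19328830 for vehicle mice and from 14802646 to 15656301 for SFN mice, and 20.9% to 23.4% of reads lay in mitochondrially encoded genes. Skeletal muscle RNA set 2 libraries apart. The summed level of 20 muscle markers was 432.8, 44.2, 5156, 44.4 and 986 FPKM in vehicle mice 1 to 5 and 66.8, 4393, 263.3, 356 and 51.1 FPKM in SFN mice 6 to 10, so vehicle mouse 3 and SFN mouse 7 carried most of it. Several results are given by limma with and without these libraries. Because tissue pieces and not sorted cells were sequenced, fewer cells of a type and less RNA per cell cannot be told apart. All p-values for BAT alone measure the spread between mice.

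A single gene passed the threshold over the whole table. At a Benjamini-Hochberg adjusted p under 0.05, limma called 1 of 13327 genes, or 0.0075%, namely Bcat2, which rose. At an adjusted p under 0.1 it called 213 genes (1.6%), of which 129 (0.968%) were higher with SFN and 84 (0.63%) lower. Without both muscle-rich libraries, and so with fewer mice, 5 genes reached that looser level. An unadjusted p under 0.05 was reached by 1110 genes in the higher direction (8.33%) and 943 in the lower direction (7.08%). In 297 genes (2.23%) all 5 SFN mice lay above all 5 vehicle mice, and in 216 (1.62%) all 5 lay below. These shares are the background for the counts of list members given below. The log2 fold change was above 0 for 50.5% of genes and below 0 for 49.5%, with a median of 0.00.

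Tools that model read counts drew the line elsewhere. On reads recovered from the FPKM values, edgeR's quasi-likelihood test called 57 of 13057 genes at an adjusted p under 0.05 (0.437%), 36 of them higher (0.276%) and 21 lower (0.161%). DESeq2 called 574 (4.4%), 278 higher (2.13%) and 296 lower (2.27%). All 57 edgeR calls were among the DESeq2 calls. Below, a gene is said to have risen or fallen by edgeR where that tool called it. Unless stated otherwise, limma's adjusted p for such a gene was between 0.0682 and 0.0729 (0.0813 for Itih4), since the ranked p-values shared a plateau, and the exact two-sided permutation test over the 252 ways to split the mice gave 0.00794, the smallest p that 5 against 5 can give. Many edgeR calls likewise shared an adjusted p, just under 0.05. All omissions of mice used limma, so no edgeR call was checked with a mouse left out.

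Bcat2, the mitochondrial aminotransferase that takes the first step in the breakdown of leucine, isoleucine and valine, rose 1.44-fold. The gene lies at chr7:45570153-45589711 (GRCm38) and its value counts reads over the whole gene model. Vehicle mice 1 to 5 had 27.8, 26.4, 26.4, 26.4 and 27.4 FPKM, and SFN mice 6 to 10 had 34.9, 42.2, 39.0, 36.9 and 41.0 FPKM. The vehicle mice were nearly identical, and the lowest SFN mouse lay well above the highest vehicle mouse. The means were 26.9 ± 0.67 and 38.8 ± 2.97 FPKM (SD, n = 5 each), a log2 fold change of 0.53 ± 0.06 (SE, limma adjusted p = 0.0284, edgeR adjusted p = 0.022, exact permutation p = 0.00794).

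The call on Bcat2 depended on single mice. Leaving out 1 mouse kept the log2 fold change between 0.49 and 0.56. The limma adjusted p was 0.0856, 0.0676, 0.0825 and 0.0677 without vehicle mouse 1, 2, 3 or 5, and 0.165, 0.0569 and 0.142 without SFN mouse 8, 9 or 10. It was 0.029, 0.0152 and 0.0307 without vehicle mouse 4, SFN mouse 6 or SFN mouse 7. Without both muscle-rich libraries, a choice made after seeing the data, the log2 fold change was 0.49 and the adjusted p 0.0778.

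The rest of the branched-chain amino acid pathway stood closer to the background. Of 27 measured genes for uptake, transamination, oxidation and regulation of branched-chain amino acids, 18 had a positive log2 fold change, with a median of 0.03 (−0.01 without vehicle mouse 2). At an unadjusted p under 0.05, 5 were higher and 0 lower by limma, 1 was called by edgeR (Bcat2) and 3 were called higher by DESeq2. In 3 members, Bcat2, Hsd17b10 and Oxct1, the SFN mice lay entirely above the vehicle mice. Hsd17b10, which acts late in isoleucine oxidation, had a mean of 85.0 FPKM with vehicle and 112.7 FPKM with SFN (log2 fold change 0.40, edgeR adjusted p = 0.0513). Oxct1, the enzyme that activates ketone bodies for oxidation, had 76.6 and 87.15 FPKM (0.19), and Slc3a2, the heavy chain of the large neutral amino acid transporter, had 17.5 and 23.7 FPKM (0.43). Dld, the shared dehydrogenase subunit of the branched-chain ketoacid and pyruvate dehydrogenase complexes, had 246.3 and 231.2 FPKM (−0.08).

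**Figure D1:**
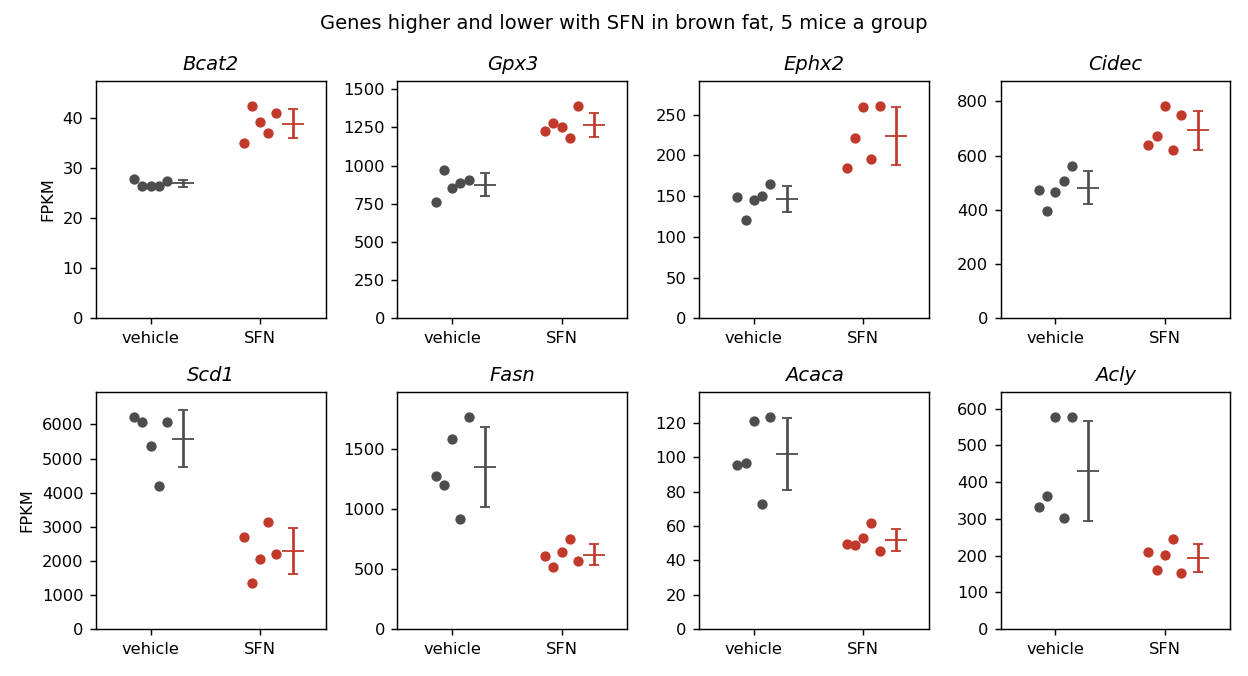
FPKM of 8 genes in each of the 10 BAT libraries, with the y axis of each panel in FPKM from 0, a dot for each mouse and the bar for mean ± SD (n = 5). The SFN mice lie above the vehicle mice for Bcat2, Gpx3, Ephx2 and Cidec, and below them for Scd1, Fasn, Acaca and Acly, with no overlap in any of the 8 panels.

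Fatty acid synthesis genes were lower with SFN. De novo lipogenesis turns cytosolic citrate into palmitate and then into longer and unsaturated fatty acids. Of 19 measured genes of that pathway, 15 had a negative log2 fold change, and the median was −0.45 against 0.00 over all genes. At an unadjusted p under 0.05, 11 were lower and 1 higher by limma, 6 had no overlap between groups, and all 6 were lower. By edgeR 5 fell and 0 rose, and by DESeq2 10 fell and 0 rose. Leaving out any 1 mouse or both muscle-rich libraries left 9 to 11 lower at an unadjusted p under 0.05. The study reported Fasn, Scd1, Acly and Me1 as lowered in BAT on these same samples. The counts for this list are thus not independent evidence of a direction.

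Acly, which splits citrate to cytosolic acetyl-CoA, was at 331.5, 361.8, 577, 301.9 and 576.6 FPKM in the vehicle mice and 210.4, 159.9, 202.5, 245.1 and 152.6 FPKM in the SFN mice. Vehicle mice 3 and 5 were the highest, and the highest SFN mouse was below the lowest vehicle mouse. It fell by 1.11 on the log2 scale (SE 0.21, edgeR adjusted p = 0.0488). Acaca, the carboxylase that commits acetyl-CoA to fatty acid synthesis, had 95.3, 96.9, 121.3, 72.9 and 123.3 FPKM with vehicle and 49.4, 48.6, 53.1, 61.9 and 45.4 FPKM with SFN. The groups were apart again, with vehicle mouse 4 the nearest to the SFN mice. Acaca fell by 0.96 (SE 0.14, edgeR adjusted p = 0.043).

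Fasn, the synthase that assembles palmitate, was at 1270, 1200, 1580, 914.6 and 1763 FPKM in the vehicle mice and 608.7, 517.4, 642, 752.5 and 568.6 FPKM in the SFN mice. The same vehicle mice, 3 and 5, were highest, and vehicle mouse 4 was lowest of its group. The log2 fold change was −1.10 ± 0.17 (SE, edgeR adjusted p = 0.043). Scd1, the desaturase that introduces a double bond into stearate and palmitate, had 6214, 6081, 5371, 4203 and 6059 FPKM with vehicle and 2683, 1350, 2056, 3147 and 2197 FPKM with SFN. It was one of the most abundant transcripts of the tissue, and it was 2.51-fold lower with SFN by the mean log2 values (log2 fold change −1.33 ± 0.21 SE, limma adjusted p = 0.0682, edgeR adjusted p = 0.043). Elovl6, which elongates palmitate to stearate, had means of 68.3 FPKM with vehicle and 39.5 FPKM with SFN and fell by edgeR (−0.77, adjusted p = 0.0488). Me1, the malic enzyme that supplies NADPH, had 99.5 and 70.7 FPKM and was called by neither limma nor edgeR (−0.45). Elovl3, which makes very long chain fatty acids and is known to be induced by cold, was counted among the thermogenic genes and had the higher mean with SFN. It had 15.01, 13.6, 15.6, 10.9 and 30.6 FPKM with vehicle and 14.6, 22.2, 56.6, 24.7 and 71.9 FPKM with SFN, so the groups overlapped (0.98 ± 0.43 SE, limma adjusted p = 0.309).

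Some genes around pyruvate and stored carbohydrate also lay lower, though the list counts depended on single mice. Tkt, the transketolase of the pentose phosphate pathway, had 369.7 FPKM with vehicle and 221.4 FPKM with SFN and fell by edgeR (−0.73, adjusted p = 0.0488). Slc2a5, a fructose transporter, had means of 7.96 and 2.81 FPKM with no overlap (−1.45, limma adjusted p = 0.0858, edgeR adjusted p = 0.077). Of 25 genes for glucose uptake, glycolysis and its control, 16 had a negative log2 fold change (median −0.11), 8 were lower and 1 higher at an unadjusted p under 0.05, and 2 fell by edgeR (Pygl and Pdk1). Pygl, a glycogen phosphorylase, went from a mean of 104 to 64.2 FPKM (−0.67, edgeR adjusted p = 0.0488). Outside the list, Gbe1, the glycogen branching enzyme, went from 55.1 to 38.7 FPKM (−0.50, edgeR adjusted p = 0.0488), and Gpd2, the mitochondrial glycerol-3-phosphate dehydrogenase, from 176.4 to 124.5 FPKM (−0.49, edgeR adjusted p = 0.0488). Within it, Eno1, a glycolytic enolase, had 630.7 and 443.2 FPKM (−0.50). By contrast, the abundant glycolytic gene Aldoa was at 1289 FPKM with vehicle and 1308 FPKM with SFN (0.04). The count of 8 was 5 without vehicle mouse 1, 3 without vehicle mouse 3, 3 without vehicle mouse 5, 3 without SFN mouse 7, 4 without SFN mouse 8, 5 without SFN mouse 10 and 3 without both muscle-rich libraries. Muscle itself expresses glycolytic genes, and its part in this count was not tested beyond that.

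The pyruvate dehydrogenase complex, which feeds glycolytic carbon to the tricarboxylic acid cycle, and Pdk1, a kinase that inhibits it, both had lower levels with SFN. Pdk1 was at 14.4, 12.6, 14.6, 10.9 and 15.1 FPKM in the vehicle mice and 9.21, 8.21, 9.33, 9.99 and 9.34 FPKM in the SFN mice. The SFN mice sat in a narrow band under the lowest vehicle mouse, and Pdk1 fell by edgeR (−0.54 ± 0.09 SE, adjusted p = 0.043). Pdha1, the catalytic subunit of the complex, had 367.7, 352.5, 378.9, 296.2 and 438 FPKM with vehicle and 268.2, 274.5, 280.7, 293 and 273.6 FPKM with SFN. These groups were just apart, at vehicle mouse 4 and SFN mouse 9 (−0.39, limma adjusted p = 0.0861). Dlat, the acetyltransferase core, had means of 179.2 and 131.6 FPKM (−0.44), and Pdhb, the partner of Pdha1, 300.6 and 227.1 FPKM (−0.39). Of the 20 measured genes of the complex and the cycle, 15 had a negative log2 fold change (median −0.07) and 6 were lower at an unadjusted p under 0.05, none higher. That count was 3 without vehicle mouse 5, without SFN mouse 8 or without both muscle-rich libraries. Without both of those libraries the median was −0.02. Cs, the citrate synthase that opens the cycle, was closer between groups, at 465.9 and 407.1 FPKM (−0.20).

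**Figure D2:**
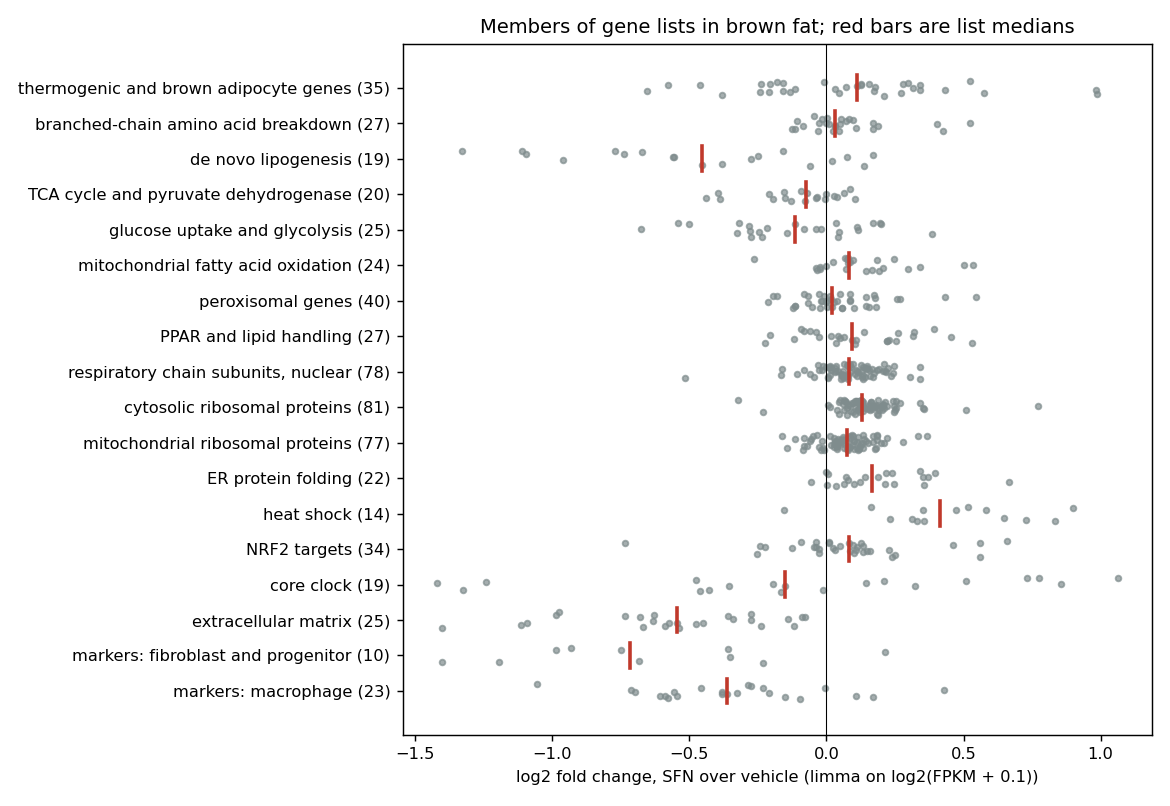
Log2 fold change, SFN against vehicle, of each measured member of 18 gene lists in BAT, with 1 dot for each gene, a red bar for the list's median and a line at 0. De novo lipogenesis has its median at −0.45 and extracellular matrix at −0.54, while heat shock lies at 0.41 and cytosolic ribosomal proteins at 0.13.

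Most genes for lipid handling had positive log2 fold changes. PPAR nuclear receptors are activated by fatty acids and drive genes for fatty acid uptake, storage and oxidation. The study picked PPAR signaling, peroxisome and ribosome as raised pathways on these same samples, so the counts for those lists are not independent evidence of a direction. Of 27 genes for PPAR signaling and lipid handling, 19 had a positive log2 fold change (median 0.09). At an unadjusted p under 0.05, 9 were higher and 1 lower, and 5 had SFN mice entirely above vehicle mice, none below. By edgeR 1 rose, and by DESeq2 7 rose and 0 fell. Leaving out any 1 mouse gave 9 or 10 higher.

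Cidec, which lets lipid droplets fuse and grow, had 474.7, 396.2, 467.1, 506.1 and 562.1 FPKM with vehicle and 639, 672.1, 781.7, 621.2 and 751.3 FPKM with SFN. The groups were apart, and Cidec rose by edgeR (0.53 ± 0.10 SE, adjusted p = 0.0488). Fabp3, a fatty acid carrier of oxidative tissues, had means of 1411 and 2009 FPKM without an edgeR call (0.52, limma adjusted p = 0.0761, edgeR adjusted p = 0.0612). Lpl, the lipase that releases fatty acids from lipoproteins, had 234.8 and 293 FPKM (0.32, edgeR adjusted p = 0.0612), and Slc27a1, a fatty acid transport protein, 41.3 and 51.5 FPKM (0.31). The abundant carrier Fabp4 was at 1712 and 1989 FPKM (0.22), and Pck1, which makes the glycerol backbone of triglycerides in adipocytes, at 979.3 and 1150 FPKM (0.23).

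Other edgeR calls, picked from the calls and not from a list, were Cyp4b1, Ephx2, Retsat, Adtrp and Slc25a34, all higher with SFN. Cyp4b1, a cytochrome P450, had 31.4, 32.0, 29.3, 25.3 and 26.0 FPKM with vehicle and 46.6, 107.6, 100.8, 47.0 and 98.1 FPKM with SFN. SFN mice 7, 8 and 10 were about level, and SFN mice 6 and 9 were lower though still above the vehicle group (1.38, edgeR adjusted p = 0.0488). Ephx2, which hydrolyses fatty acid epoxides, rose from a mean of 146.1 to 224 FPKM (0.61, edgeR adjusted p = 0.0488), and Retsat, a retinol saturase, from 54.2 to 75.3 FPKM (0.48, edgeR adjusted p = 0.0488). Adtrp, a hydrolase of branched fatty acid esters of hydroxy fatty acids, rose from 9.40 to 19.1 FPKM (1.01, edgeR adjusted p = 0.043). Slc25a34, an orphan mitochondrial carrier, rose from 19.3 to 39.8 FPKM (0.99, edgeR adjusted p = 0.0488).

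Most mitochondrial oxidation genes had small positive values. Of 24 genes for mitochondrial fatty acid oxidation, 18 had a positive log2 fold change (median 0.08), 8 were higher at an unadjusted p under 0.05 and 0 lower, and edgeR called 0 while DESeq2 called 2, both higher. Acot2, a mitochondrial acyl-CoA thioesterase, had means of 40.5 and 58.0 FPKM (0.50) and Eci1, an isomerase for unsaturated fatty acids, 500 and 590.5 FPKM (0.25). Acadl, the most used long-chain dehydrogenase in mouse mitochondria, was at 1516 and 1595 FPKM (0.08). The count of 8 was 5 without both muscle-rich libraries. Of 40 peroxisomal genes, 24 had a positive log2 fold change (median 0.02), 7 were higher and 2 lower at an unadjusted p under 0.05, and 1 rose by edgeR. The count of 7 was 4 without vehicle mouse 2 or without SFN mouse 9. Cat, the peroxisomal catalase, had 332.5 and 398.7 FPKM (0.26), and Ehhadh, a bifunctional enzyme of peroxisomal β-oxidation, 20.6 and 30.2 FPKM (0.55).

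For storage, 9 of 14 triglyceride synthesis genes had a positive log2 fold change (median 0.06), with 2 higher and 1 lower at an unadjusted p under 0.05. Dgat2, which completes triglyceride synthesis, had 807.3 and 1030 FPKM (0.35). The glycerol-3-phosphate dehydrogenase Gpd1 had 2683 and 1995 FPKM (−0.42). From the lipid handling list, G0s2, an inhibitor of the lipase that starts lipolysis, had 495.6 and 686.5 FPKM (0.46). Of 22 cholesterol synthesis genes 8 were positive (median −0.05), with 2 higher and 2 lower at an unadjusted p under 0.05. Over all genes, 8.33% were higher and 7.08% lower at that p.

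The thermogenic genes had no common direction. Of 35 thermogenic and brown adipocyte genes, 21 had a positive log2 fold change (median 0.11), 6 were higher and 3 lower at an unadjusted p under 0.05, and edgeR called 0. DESeq2 called 2 higher and 3 lower. Without vehicle mouse 5 the 6 higher were 10, and without SFN mouse 9 the 3 lower were 7, with 5 higher. Cox8b, a respiratory subunit enriched in brown fat and muscle, was at 3479 and 4370 FPKM (0.34), and Plin5, a coat protein that ties lipid droplets to mitochondria, at 169.2 and 210.3 FPKM (0.31). In the lower direction, Ntrk3, a neurotrophin receptor, had 12.3 and 7.94 FPKM (−0.65), and Pank1, which controls coenzyme A synthesis, 104.4 and 76.8 FPKM (−0.46), each with no overlap between groups. For alternative heat production by creatine and calcium cycling, 3 of 8 genes were positive, with a median of −0.08. That median changed sign without vehicle mouse 3 (0.16), vehicle mouse 5 (0.13), SFN mouse 6 (0.11) or SFN mouse 10 (0.10). The summed level was highest in the muscle-rich libraries, at 190.9 FPKM in vehicle mouse 3 and 179.8 FPKM in SFN mouse 7. Without both of them the median was −0.08. Gatm, which makes the precursor of creatine, was at 1.15, 1.69, 1.53, 1.52 and 1.09 FPKM with vehicle and 0.76, 0.68, 0.83, 0.91 and 0.77 FPKM with SFN, with no overlap (−0.74).

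Most nuclear-encoded respiratory chain genes had small positive values. Of 78 nuclear-encoded subunits, 66 had a positive log2 fold change (median 0.08), and 12 were higher and 1 lower at an unadjusted p under 0.05, with no group pair apart. The count of 12 was unsteady, at 7, 5, 4, 3, 3 and 7 without vehicle mouse 2, vehicle mouse 3, SFN mouse 6, SFN mouse 8, SFN mouse 9 and SFN mouse 10. It was 17 without vehicle mouse 5 or without SFN mouse 7, and 9 without both muscle-rich libraries. Cox4i1, a core regulatory subunit of complex IV, was at 1007 and 1169 FPKM (0.22) and Ndufa3, of complex I, at 220.5 and 270.7 FPKM (0.30). Of 13 mitochondrially encoded subunits, 10 had a negative log2 fold change (median −0.10) and 1 was lower at an unadjusted p under 0.05. That was mt-Nd4l, a complex I subunit whose gene overlaps mt-Nd4, at means of 317.2 and 225.1 FPKM with overlap between groups (−0.47). For mt-Co1, the catalytic subunit of complex IV, the SFN mice all lay below the vehicle mice, by a small step (−0.10, limma adjusted p = 0.592). Without both muscle-rich libraries 6 of the 13 were positive, with a median of −0.01, and the median was −0.03 without vehicle mouse 3. The 1 lower was 4 without vehicle mouse 1 and 2 without vehicle mouse 2 or SFN mouse 6. Whether the nuclear and mitochondrial subunits differ from each other was not tested.

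Most ribosomal protein genes had higher levels with SFN, mostly by a small step. Of 81 cytosolic ribosomal protein genes, 79 had a positive log2 fold change with a median of 0.13 and a range from −0.32 to 0.77, 55 were higher and 0 lower at an unadjusted p under 0.05, and in 31 the SFN mice lay entirely above the vehicle mice. By edgeR 1 rose and by DESeq2 26 rose, with 0 lower by either. Leaving out any 1 mouse left 39 to 55 higher, and leaving out both muscle-rich libraries left 46. The study chose this pathway on these samples, so the direction is not independent evidence, and many of these genes have near-identical processed pseudogenes that could share their reads.

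Rps28, a small-subunit protein, had 47.2, 40.9, 46.1, 48.8 and 42.8 FPKM with vehicle and 61.8, 50.4, 69.2, 69.8 and 72.0 FPKM with SFN. SFN mouse 7 was closest to the vehicle group and did not overlap it (0.51 ± 0.10 SE, edgeR adjusted p = 0.0488). The other members with small p-values differed less. Rps15 had means of 300.8 and 350.5 FPKM (0.22) and Rps27 111.3 and 131.6 FPKM (0.24). The abundant stalk protein Rplp1 was at 743.8 and 801.6 FPKM (0.11). Of 77 mitochondrial ribosomal protein genes, 61 were positive (median 0.08) and 10 were higher at an unadjusted p under 0.05, a count that was 5, 6, 5, 6, 4 and 4 without vehicle mouse 2, vehicle mouse 3, SFN mouse 6, SFN mouse 8, SFN mouse 9 and SFN mouse 10. That count was 15 without vehicle mouse 5 or without SFN mouse 7. Of 36 ribosome biogenesis genes, 29 were positive (median 0.08) and 4 were higher, 9 without vehicle mouse 5. The 4 stand beside 8.33% of all genes higher at that p. The study also reported ribosome biogenesis as raised in tissues that include BAT, so this direction is not independent evidence either.

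SFN is best known as an electrophile that frees the transcription factor NRF2 (Nfe2l2) from its inhibitor KEAP1, and NRF2 drives genes for glutathione, thioredoxin and quinone metabolism. Of 34 NRF2 targets, 23 had a positive log2 fold change (median 0.08), 6 were higher and 3 lower at an unadjusted p under 0.05, and 1 gene fell by edgeR. That gene was Tkt, described above. DESeq2 called 3 higher and 1 lower. The 6 higher were Aox1, Ftl1, Cbr3, Srxn1, Fth1 and Gsr, of which Cbr3 and Fth1 were named after their values were seen. Ftl1 and Fth1, the ferritin chains that store iron, had means of 332.3 and 462.2 FPKM (0.46, limma adjusted p = 0.182) and of 1967 and 2197 FPKM (0.16). Cbr3, a carbonyl reductase, had 4.85 and 7.15 FPKM (0.56, limma adjusted p = 0.221), and Aox1, an aldehyde oxidase, 11.3 and 13.4 FPKM (0.24), with no overlap for Aox1. The 3 lower were 1 without SFN mouse 10 or without both muscle-rich libraries. Nqo1, a quinone reductase, had means of 1.19 FPKM with vehicle and 1.26 FPKM with SFN (0.13, limma adjusted p = 0.896). Hmox1, the haem oxygenase, had 15.2 and 14.9 FPKM (−0.03, limma adjusted p = 0.978), and Gclm, the regulatory subunit of glutathione synthesis, 4.63 and 5.18 FPKM (0.15). The thioredoxin-system genes were at 23.7 and 28.3 FPKM for Srxn1 (0.25) and 14.5 and 15.6 FPKM for Txnrd1 (0.11), and the glutathione reductase Gsr at 10.4 and 11.4 FPKM (0.13). Tissue was taken at an interval after injection that is not given in the sources used here.

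Among the 57 edgeR calls, 3 genes outside that list that act on peroxides or oxidised methionine are described here, picked from those calls after their values were seen. Gpx3, the secreted glutathione peroxidase, was at 761.5, 968.1, 849.8, 888.1 and 908.4 FPKM in the vehicle mice and 1225, 1280, 1252, 1182 and 1387 FPKM in the SFN mice. The groups were far apart relative to the spread within each, at 875.2 ± 76.6 and 1265 ± 77.2 FPKM (SD, n = 5 each), and Gpx3 rose 0.53 ± 0.07 on the log2 scale (SE, limma adjusted p = 0.0682, edgeR adjusted p = 0.043). Prdx6, a peroxiredoxin that reduces phospholipid peroxides, rose from a mean of 57.8 to 85.4 FPKM (0.55, edgeR adjusted p = 0.0488). Msrb1, a selenoprotein that repairs oxidised methionine, rose from 37.8 to 60.0 FPKM (0.65, edgeR adjusted p = 0.0488).

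Mt1, a metallothionein that binds zinc and copper, was at 88.8, 91.8, 86.7, 92.0 and 98.3 FPKM with vehicle and 132, 185.9, 195.3, 127 and 222.2 FPKM with SFN. The vehicle mice were tight and the SFN mice wide, with SFN mice 6 and 9 the lowest again (0.88 ± 0.15 SE, edgeR adjusted p = 0.0488). Mt1 was the edgeR call among 13 glucocorticoid-responsive genes and metallothioneins, of which 8 were positive (median 0.13) and 2 higher at an unadjusted p under 0.05. The other of those 2 was Cdkn1a, a cell cycle inhibitor, at 30.8 and 54.7 FPKM with no overlap (0.78, limma adjusted p = 0.137). Nnmt, which methylates nicotinamide, rose from 26.4 to 50.4 FPKM (0.94, edgeR adjusted p = 0.0488), Ppa1, the cytosolic pyrophosphatase, from 47.6 to 83.2 FPKM (0.79, edgeR adjusted p = 0.0488) and Grina, a membrane protein of the ER and Golgi, from 160.8 to 246.5 FPKM (0.61, edgeR adjusted p = 0.043).

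A few acute-phase genes gave some of the largest differences, though the list of such genes had no common direction. Hp, haptoglobin, which binds free haemoglobin and is made in fat as well as liver, was at 780.7, 982.5, 769.5, 776.5 and 846.7 FPKM with vehicle and 1297, 2155, 2659, 1252 and 1867 FPKM with SFN. SFN mice 7, 8 and 10 were highest, and the lowest SFN mice, 6 and 9, were still above vehicle mouse 2. Hp rose 1.10 ± 0.20 on the log2 scale (SE, edgeR adjusted p = 0.0488). Itih4, an inter-α-trypsin inhibitor heavy chain, was at 0.39, 0.91, 0.33, 0.49 and 0.44 FPKM with vehicle and 1.87, 5.18, 17.4, 1.19 and 11.6 FPKM with SFN. SFN mice 8, 10 and 7 were highest and SFN mice 6 and 9 lowest, the same split as for Hp, and Itih4 rose by edgeR (3.06 ± 0.65 SE, adjusted p = 0.0488).

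Lcn2, lipocalin 2, had 0.84, 1.88, 0.67, 0.67 and 0.47 FPKM with vehicle and 3.40, 12.1, 14.3, 1.36 and 6.34 FPKM with SFN. SFN mouse 9 lay below vehicle mouse 2, so the groups overlapped (2.63 ± 0.59 SE, edgeR adjusted p = 0.0662, exact permutation p = 0.0159). Serpina3n, a protease inhibitor, had means of 9.29 and 36.4 FPKM with overlap (1.84, limma adjusted p = 0.186), and complement C3, which like Itih4 was not on the list, 57.2 and 109.9 FPKM (0.90, edgeR adjusted p = 0.0612). Of the 13 acute-phase and inflammatory genes measured, 7 were positive and 6 negative (median 0.21). At an unadjusted p under 0.05, 3 were higher and 1 lower, the higher ones being Hp, Lcn2 and Serpina3n. The list median was 0.02 without SFN mouse 6 and 0.12 without vehicle mouse 4 or SFN mouse 10. Without both muscle-rich libraries it was 0.10, with 2 higher. The lowest log2 fold change of the list was −1.19, for Ccl5, at means of 1.455 and 0.61 FPKM. Orm1 had 57.2 and 66.1 FPKM (0.21). Summed markers of hepatocytes, the main source of acute-phase proteins, were at 1.55 to 3.58 FPKM with vehicle and 1.88 to 28.6 FPKM with SFN, highest in SFN mouse 7, and their part in these values was not tested.

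Clock genes differed between the groups in both directions. In the mammalian clock, ARNTL (BMAL1) with CLOCK or NPAS2 activates genes through E-boxes, PER and CRY proteins repress that activity, and REV-ERB (Nr1d1, Nr1d2) and ROR receptors set the level of Arntl. Of 19 clock genes 8 had a positive log2 fold change (median −0.15), with 4 higher and 4 lower at an unadjusted p under 0.05 and 3 higher and 1 lower with no overlap. By edgeR 1 rose, and by DESeq2 3 rose and 3 fell. The hour of tissue collection for each mouse is not given in the sources used here, so a shift in clock phase and a difference in collection hour cannot be told apart.

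The arms of the loop lay on opposite sides. Nr1d1 was at 23.0, 33.1, 34.9, 36.3 and 72.9 FPKM with vehicle and 13.6, 9.11, 10.7, 29.3 and 12.9 FPKM with SFN. SFN mouse 9 fell inside the vehicle range and vehicle mouse 5 far above its group (−1.42 ± 0.34 SE, limma adjusted p = 0.105). Cry1 had 4.46, 3.45, 4.18, 4.06 and 3.93 FPKM with vehicle and 5.56, 9.57, 8.76, 5.52 and 8.19 FPKM with SFN. The groups did not overlap, SFN mice 6 and 9 were again nearest to the vehicle mice, and Cry1 rose by edgeR (0.86 ± 0.16 SE, adjusted p = 0.0488).

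Arntl had means of 2.78 and 4.67 FPKM, with no overlap (0.73, limma adjusted p = 0.0858). Nfil3, a repressor that competes with DBP, had 18.3, 16.6, 26.5, 22.02 and 23.5 FPKM with vehicle and 30.3, 30.3, 30.5, 32.6 and 27.0 FPKM with SFN, also with no overlap (0.51, limma adjusted p = 0.0861). Nr1d2, the second REV-ERB, had means of 8.43 and 3.41 FPKM (−1.24, limma adjusted p = 0.0858) and overlapped between groups, while Dbp, an output activator, had 3.46 and 1.15 FPKM without overlap (−1.33, limma adjusted p = 0.152). Vehicle mouse 5 had the highest Nr1d1 and Dbp and the lowest Arntl of its group. Of the other members, Npas2 had a log2 fold change of 1.07 and Per2 of 0.77 and Per1 of 0.32. Clock was at 0.14, Rora at −0.01, Ciart at −0.15, Hlf at −0.17 and Cry2 at −0.19. The lowest of the rest were Tef at −0.36, Per3 at −0.43, Bhlhe40 at −0.46 and Bhlhe41 at −0.48.

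**Figure D3:**
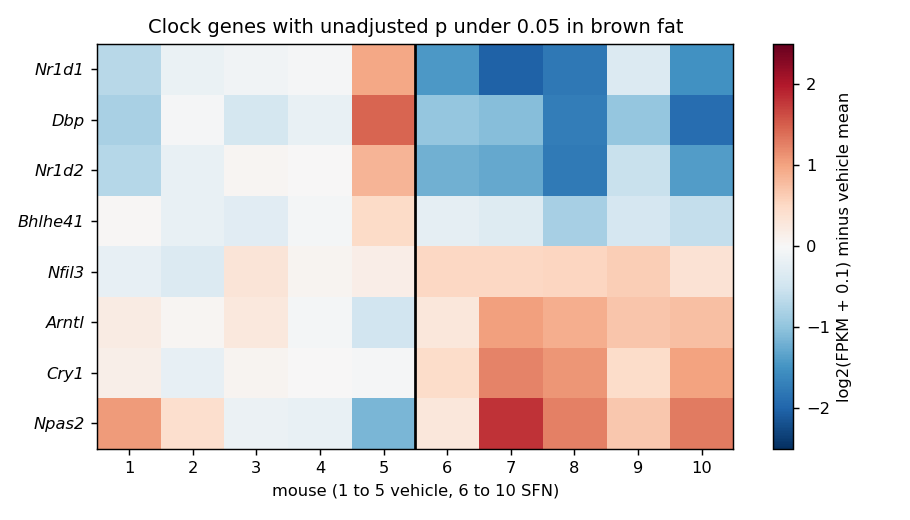
Heat map of the 8 clock genes with an unadjusted limma p under 0.05 in the 10 BAT libraries, coloured by log2(FPKM + 0.1) minus the mean of the 5 vehicle mice, with genes in rows and mice in columns. Cry1 and Arntl are above and Dbp below the vehicle mice in all 5 SFN mice, and SFN mouse 9 with 29.3 FPKM of Nr1d1 is closest to the vehicle pattern for that gene.

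Because E-boxes are the sites through which ARNTL acts, the stretches of clock-gene promoters that hold one are shown. The motif CACGTG, which reads the same on both strands, was searched in the 250 bases before each start site in the RefSeq promoters (GRCm38.p6). It was present in 5 of the 16 clock genes with a promoter sequence, against 6.9% of 27025 gene symbols. The windows for 4 of these are below, 5′ to 3′ on the gene's strand with the motif in capitals, for Cry1 at chr10:85185097-85185126 on the minus strand, Per1 at chr11:69098771-69098800 on the plus strand, Tef at chr15:81802534-81802563 on the plus strand and Bhlhe41 at chr6:145865556-145865585 on the minus strand. The genes with a motif included some higher with SFN, such as Cry1, and some with negative values, such as Bhlhe41. A match describes these letters and is not evidence of binding.
Cry1: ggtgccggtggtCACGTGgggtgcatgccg
Per1: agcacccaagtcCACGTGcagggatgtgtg
Tef: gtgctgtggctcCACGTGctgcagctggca
Bhlhe41: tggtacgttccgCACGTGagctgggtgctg

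Matrix genes lay below the vehicle level throughout. Of 25 extracellular matrix genes 0 had a positive log2 fold change, and the median was −0.54. At an unadjusted p under 0.05, 16 were lower, 3 had no overlap, and edgeR called 0 of them at an adjusted p under 0.05 while DESeq2 called 14, all lower. Leaving out any 1 mouse left 13 to 19 lower, with the smallest shift when vehicle mouse 2 was left out (13 lower, median −0.40), and leaving out both muscle-rich libraries left 14.

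Lum, a collagen-binding proteoglycan, was at 12.8, 40.8, 14.5, 22.5 and 10.5 FPKM with vehicle and 7.94, 6.60, 4.91, 9.53 and 5.38 FPKM with SFN. Vehicle mouse 2 stood highest and the groups did not overlap (−1.40 ± 0.34 SE, limma adjusted p = 0.105, edgeR adjusted p = 0.0858). Col3a1 and Col1a1, fibrillar collagens, had means of 157.7 and 69.1 FPKM (−1.09) and of 88.1 and 40.0 FPKM (−0.99). Sparc, a collagen-binding glycoprotein that is abundant in fat, had 509.7 and 400.2 FPKM (−0.34), and Postn, periostin, 16.2 and 11.7 FPKM (−0.45), both with no overlap. Nid2, a basement membrane protein that was not on the list, had 6.39 and 3.46 FPKM and fell by edgeR (−0.84, adjusted p = 0.0488).

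Most fibroblast and macrophage markers had negative log2 fold changes, but the summed levels of the groups overlapped. Summed over 10 fibroblast and progenitor markers, the level was 221.6, 406.2, 231.6, 308.5 and 168.9 FPKM with vehicle and 191.5, 187.4, 180.5, 186.1 and 203.7 FPKM with SFN. Vehicle mouse 2 was highest, vehicle mouse 5 was below all SFN mice, and 9 of the 10 markers had a negative log2 fold change (median −0.72, 7 lower at an unadjusted p under 0.05). Summed over 23 macrophage markers, the level was 459.2, 877.6, 446.3, 538.8 and 230.6 FPKM with vehicle and 327.9, 310.3, 405.7, 374.2 and 449.7 FPKM with SFN, with 20 of 23 negative (median −0.36, 3 lower at an unadjusted p under 0.05). Vehicle mouse 5 was below all SFN mice here too, and SFN mouse 10 was above vehicle mouse 3. The macrophage values turned on single mice. Without vehicle mouse 2 the median was −0.08, with 16 negative and 0 lower at an unadjusted p under 0.05, and without vehicle mouse 5 it was −0.55 with 10 lower. The count of lower markers was also 0 without vehicle mouse 4, SFN mouse 7 or both muscle-rich libraries, and 1 without vehicle mouse 1, SFN mouse 6, SFN mouse 8 or SFN mouse 9. The part of these cells in the matrix result was not tested. Lum is on both the fibroblast and the matrix list, so those counts are not fully separate. Pi16, which marks adipose progenitors, had means of 7.93 and 3.40 FPKM (−1.20), and the macrophage genes Mpeg1 and Itgax had 12.4 and 7.03 FPKM (−0.71) and 1.21 and 0.47 FPKM (−1.06).

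**Figure D4:**
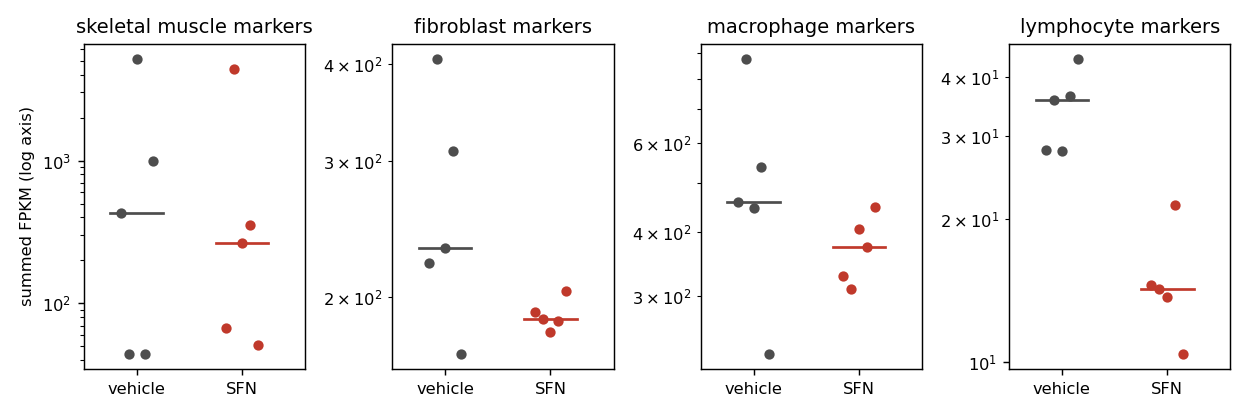
Summed FPKM, on a log axis, of skeletal muscle, fibroblast, macrophage and lymphocyte marker genes in the 10 BAT libraries, with a dot for each mouse and a line at each group's median. Muscle markers reach 5156 FPKM in vehicle mouse 3 and 4393 FPKM in SFN mouse 7, fibroblast and macrophage sums are highest in vehicle mouse 2, and lymphocyte sums do not overlap between the groups.

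The summed level of lymphocyte markers separated the groups. Of 16 listed markers 5 were measured, and 1 of these, Ighm, had no overlap on its own. The sum of 5 markers was 28.0, 35.7, 27.8, 36.4 and 43.6 FPKM with vehicle and 14.5, 14.2, 13.7, 21.4 and 10.4 FPKM with SFN. Ighm, the heavy chain of IgM and a B cell marker, made up most of it, at 21.9, 25.03, 23.9, 20.6 and 37.9 FPKM with vehicle and 10.6, 10.3, 8.22, 16.5 and 6.49 FPKM with SFN. The highest SFN mouse, 9, was below the lowest vehicle mouse, and Ighm fell by edgeR (−1.34, adjusted p = 0.0488). All 5 markers had a negative log2 fold change, and 2 were lower at an unadjusted p under 0.05. Markers of nerve (6 of 6) and of red blood cells (5 of 5) were likewise negative, with median log2 fold changes of −0.26 and −0.29.

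Vascular and cell cycle genes included further edgeR calls. Apln, the peptide apelin, which tip endothelial cells and adipocytes release, was at 3.94, 3.04, 2.70, 2.62 and 3.50 FPKM with vehicle and 1.94, 1.06, 0.87, 1.15 and 1.42 FPKM with SFN. The groups were apart, with SFN mouse 6 the highest of its group, and Apln fell by edgeR (−1.26 ± 0.19 SE, adjusted p = 0.0488). Of the 21 endothelial and angiogenic genes 11 were positive (median 0.03), with 2 higher and 3 lower at an unadjusted p under 0.05. The shares over all genes were 8.33% higher and 7.08% lower. Cldn5, a tight junction protein, had 68.4 and 46.5 FPKM (−0.55), and the endothelial sialomucin Emcn 4.77 and 6.58 FPKM (0.44). Ccnd1, cyclin D1, which was not among the proliferation genes listed, had 5.66 and 3.21 FPKM and fell by edgeR (−0.82, adjusted p = 0.0488). Of 12 proliferation genes 10 were negative (median −0.37) and 4 lower at an unadjusted p under 0.05, 7 without vehicle mouse 3. Ccnb2, a mitotic cyclin, had 1.01 and 0.47 FPKM (−0.90).

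Among the largest differences outside the lists, Lctl, a klotho-family protein expressed in brown fat, fell by edgeR from 29.5 to 13.1 FPKM (−1.16, adjusted p = 0.0495). Sfrp4, a secreted modulator of WNT signalling, had 1.6 and 0.50 FPKM (−1.35) and Prodh, which oxidises proline in mitochondria, 2.57 and 5.60 FPKM (1.00), each with no overlap. Klhl25, an adaptor of a CUL3 ubiquitin ligase known to target ACLY, rose by edgeR from 5.94 to 9.42 FPKM (0.65, adjusted p = 0.0488). Leptin (Lep) had 89.1 and 66.8 FPKM (−0.46) and adiponectin (Adipoq) 551.2 and 594.1 FPKM (0.11), and 8 of 18 adipokine genes were positive.

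The SFN difference in BAT was set against that in 2 white depots with the same mouse numbers, by testing the interaction of tissue and treatment. Against inguinal fat (iWAT), 0 of 12496 genes differed at a limma adjusted p under 0.05, with or without the mouse as a block, while 1143 (9.15%) had an unadjusted p under 0.05. No count-based tool was run on this interaction. Against epididymal fat (eWAT), 13 of 12098 genes differed (0.107%), 12 with the smaller value in BAT and 1 with the larger, and 1558 (12.9%) had an unadjusted p under 0.05. With the mouse as a block the count was 24 (0.198%), and 5 genes were called in both fits. The fit with the block also left out the intensity trend, so the fits differ in more than the block. The fit without the block treated the libraries of a mouse as independent. The count without the block ranged from 0 to 114 when 1 mouse was left out. It was 0 without mouse 3, 7 or 10, 4 without mouse 1, 4 or 6, 5 without mouse 2 or 8, 6 without mouse 9 and 114 without mouse 5.

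Kng2, a kininogen gene, had means of 71.2 FPKM with vehicle and 62.1 FPKM with SFN in BAT, and 1.23 and 3.67 FPKM in eWAT. The log2 fold changes were −0.22 and 1.52, a difference of −1.74 (limma adjusted p = 0.0148, with the block 0.0392). Ptgis, prostacyclin synthase, had 0.74 and 0.34 FPKM in BAT and 15.1 and 30.5 FPKM in eWAT (difference −1.89, adjusted p = 0.022, with the block 0.0392). Fcgr2b, the inhibitory Fc receptor of B cells and macrophages, had 2.37 and 1.53 FPKM in BAT and 13.5 and 29.9 FPKM in eWAT (difference −1.66, adjusted p = 0.0471, with the block 0.0392). Tspan4, a tetraspanin, had log2 fold changes of −0.43 and 0.60 (difference −1.04, adjusted p = 0.0148, with the block 0.0392).

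Pdk1 lay lower with SFN in BAT and higher in eWAT, at 4.00 and 4.88 FPKM there, a difference of −0.82 (adjusted p = 0.022, with the block 0.0643). Sord, which converts sorbitol to fructose, was the gene with the larger value in BAT, at 31.9 and 41.6 FPKM against 24.97 and 21.8 FPKM in eWAT (difference 0.58, adjusted p = 0.0471, with the block 0.0546). Klhl25 and Cyp4b1 were called with the block and not without it, with differences of 0.66 and 0.99 (adjusted p = 0.0392 each with the block). For Bcat2 the difference from eWAT was 0.47 ± 0.10 (SE, adjusted p = 0.0654, with the block 0.0821) and that from iWAT 0.53 (adjusted p = 0.503), so the rise was not shown to be particular to BAT. The lipogenic genes were not shown to differ between BAT and eWAT either, with differences of 0.52 for Fasn (adjusted p = 0.726) and −0.25 for Scd1 (adjusted p = 0.883).

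**Figure D5:**
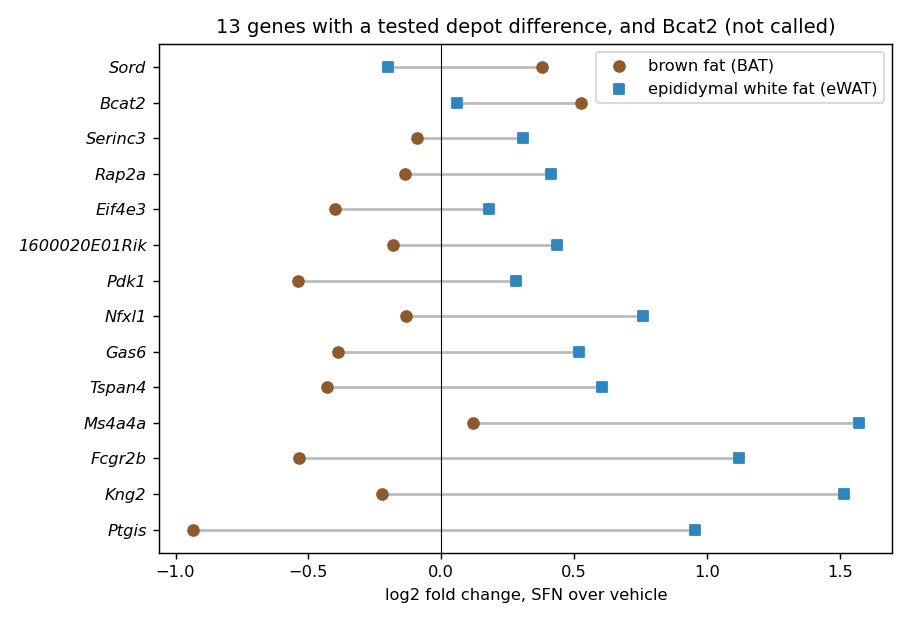
Log2 fold change, SFN against vehicle, in BAT and in eWAT for the 13 genes whose 2 values differed by limma's interaction test, and for Bcat2. Sord has the larger value in BAT, the other 12 have the larger value in eWAT, and Bcat2 (difference 0.47, adjusted p = 0.0654) did not pass.

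List medians in the 3 depots are given side by side, without a test of their difference. De novo lipogenesis had medians of −0.45 in BAT, −0.56 in iWAT and −0.68 in eWAT, and cytosolic ribosomal proteins had 0.13, 0.09 and 0.21. PPAR and lipid handling genes had 0.09 in BAT, −0.07 in iWAT and −0.19 in eWAT, with 19 of 27, 6 of 27 and 6 of 26 genes positive. Extracellular matrix genes had −0.54, −0.40 and −0.22, and macrophage markers −0.36, 0.01 and 0.45. Heat shock genes had 0.41, −0.07 and −0.06.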

How the data were processed

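Poly-A libraries from BAT of 5 vehicle and 5 SFN mice were analysed. The authors deposited FPKM for all genes, which are not counts, together with per-comparison tables of read counts and normalized signal (counts divided by size factors). Coordinates follow GRCm38 (mm10). For aligner, counter and annotation release, the names were not given in the sources used here. Columns of fold changes and p-values in the deposited tables hold the authors' own comparisons and were not used, and 0 columns were left unmapped.

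Log2(FPKM + 0.1) was tested for genes averaging at least 0.5 FPKM by limma 3.58.1 (R 4.3.3) with an intensity trend, two-sided, adjusted over all genes tested. FPKM fold changes are on this scale, which understates changes of low genes. Whole reads were recovered for 13057 of the 13327 genes from FPKM, gene length and a scale for each library. That scale was taken from the deposited BAT counts. The 24680 recovered values that have a deposited count differed from it in 0, which the scale fixed in advance, so this is no independent check. Genes recovered with annotation lengths were not part of that comparison. These reads went to edgeR 4.0.16 and DESeq2 1.42.0, and the other 270 genes were left out of both. Interactions with iWAT and eWAT used limma on the same scale, with the intensity trend except in the fits with the mouse as a block. The tests were first tested on simulated data.

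Named genes were those past the threshold, the 10 largest changes each way (protein-coding, mean of at least 1 FPKM, unadjusted p under 0.05, no overlap), edgeR calls, up to 4 members of each list with the smallest p and the 2 most abundant, and genes the study names for fat. A few genes that this rule names are not reported here. The members and lists were chosen with earlier results of these data known. The sample titles carry the same numbers in each tissue, and a number was taken to mark the same animal. On that assumption the mouse served as a block in the depot comparisons. Deviations under the same number correlated at 0.002 to 0.184 between BAT and eWAT and −0.427 to 0.186 between BAT and iWAT. These correlations do not settle the pairing. Alternatives were another pseudocount, other filters, TPM and median-ratio scaling, no trend, library weights, all tissues in one fit, and each mouse left out. Omitting the 2 muscle-rich libraries was added after seeing the data.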

Additional observations from a re-analysis of the deposited data

Results flagged for a closer look

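Dixon's test on each group of 5 mice, at a critical value of 0.71, set 1 mouse apart in 15 of the 262 groups tested, which is close to the share that chance gives at its 95% level. Vehicle mouse 2 accounted for 5 of the 15, vehicle mouse 5 for 4 and SFN mouse 7 for 3. Vehicle mouse 2 was lowest for Dgat2 (626.6 FPKM) and highest for Lcn2 (1.88 FPKM), Serpina3n (22.5 FPKM), Itih4 (0.91 FPKM) and Sfrp4 (3.32 FPKM). Vehicle mouse 5 was highest for Elovl3 (30.6 FPKM), Nr1d1 (72.9 FPKM), Dbp (8.18 FPKM) and Ighm (37.9 FPKM).

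SFN mouse 7 had the lowest Ucp1 (2201 FPKM) and the highest sums of skeletal muscle markers (4393 FPKM) and hepatocyte markers (28.6 FPKM). Vehicle mouse 3 had the highest muscle marker sum of its group (5156 FPKM). SFN mouse 9 was highest for Nr1d1 (29.3 FPKM) and SFN mouse 10 lowest for Lep (30.6 FPKM).

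The 13 genes whose SFN difference in BAT differed from that in eWAT by limma's interaction test had differences of −1.89 for Ptgis, −1.74 for Kng2, −1.66 for Fcgr2b, −1.45 for Ms4a4a, −1.04 for Tspan4, −0.91 for Gas6, −0.89 for Nfxl1, −0.82 for Pdk1, −0.62 for 1600020E01Rik, −0.58 for Eif4e3, −0.55 for Rap2a, −0.40 for Serinc3 and 0.58 for Sord on the log2 scale.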

How the results depend on the processing

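The number of genes called in BAT was 1, and it was 2 with no filter, 25 on TPM, 0 without the trend, 57 by edgeR, 574 by DESeq2, 96 with all tissues in one fit, and 0 to 7 with 1 mouse left out. Without both muscle-rich libraries it was 1, Mir7688 and not Bcat2. Bcat2 kept its direction in every setting, with an adjusted p of 0.111 without the trend. The eWAT interaction count of 13 was 24 with the replicate block (mouse) and no trend, 25 with a pseudocount of 1, and 0 to 114 with 1 mouse left out. The iWAT count was 0 throughout, the block included, so the block changed no call there.

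The median of creatine and calcium cycling genes ranged from −0.157 to 0.165 and that of adipokines from −0.0985 to 0.0733 with 1 mouse left out. The medians of branched-chain amino acid breakdown (−0.0051 to 0.0685), peroxisomal genes (−0.0135 to 0.0475) and endothelial genes (−0.0049 to 0.0669) changed sign as well, and the integrated stress response median was 0.268 without the muscle-rich libraries. The sign changed for Ucp1 (−0.0945 to 0.199 with 1 mouse left out), Nqo1 (−0.0506 to 0.340) and Hmox1 (−0.179 to 0.143, with 0.0137 under library weights and 0.102 without the muscle-rich libraries), none of them called. Over 609 values of 29 list medians, 603 moved by less than the spread between replicates. The causes of these shifts were not tested. TPM and median-ratio scaling moved the median of all genes to 0.00 and left 50.7% and 49.2% of genes above 0.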

Other observations

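Protein folding genes lay on the higher side. Of 14 heat shock genes, 13 had a positive log2 fold change (median 0.41), and 4 were higher at an unadjusted p under 0.05, 2 without vehicle mouse 1 and 11 without vehicle mouse 5. Hspe1, the mitochondrial co-chaperonin, was at 97.9, 84.5, 110.8, 115.3 and 127.8 FPKM with vehicle and 129, 137.3, 158.6, 147.8 and 166.8 FPKM with SFN, just without overlap (0.47, limma adjusted p = 0.0983, edgeR adjusted p = 0.0858). Hspb1, a small heat shock protein, had means of 201.6 and 316.3 FPKM (0.73). Of 22 genes for folding in the endoplasmic reticulum (ER), 20 were positive (median 0.17) and 9 were higher at an unadjusted p under 0.05, against 5 without vehicle mouse 3, 5 without SFN mouse 8 and 4 without both muscle-rich libraries. Without SFN mouse 6 it was 13. Calr, an ER chaperone that binds calcium, had 96.4 and 126.1 FPKM with no overlap (0.37, limma adjusted p = 0.15), and Pdia6, a disulfide isomerase, 29.4 and 37.4 FPKM (0.34). edgeR called 0 members of either list, while at an unadjusted p under 0.05 limma had the counts above.

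Of 18 integrated stress response genes 16 were positive (median 0.21) and 5 higher at an unadjusted p under 0.05, 3 without SFN mouse 8 or SFN mouse 10. Eif4ebp1, a translation inhibitor, had 88.6 and 107.5 FPKM with no overlap (0.28). Of 37 proteasome genes 28 were positive (median 0.06) and 7 higher, 3 without vehicle mouse 2 and 4 without vehicle mouse 3, SFN mouse 8, SFN mouse 9 or SFN mouse 10. Of 26 interferon-response genes 19 were positive (median 0.06) and 4 higher, 2 without vehicle mouse 2, vehicle mouse 5, SFN mouse 6 or SFN mouse 8 and 1 without both muscle-rich libraries. Ifi27l2a, an interferon-induced mitochondrial protein, had 459.4 and 754.8 FPKM (0.71, edgeR adjusted p = 0.0683).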
